A study of Bos taurus with 9 samples.

Results

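The genes described here are the metallothioneins MT1A, MT1E and MT2A, the metal-sensing transcription factor MTF1, and the zinc transporters SLC39A14, SLC30A1 and SLC30A10, in the liver of lactating Holstein cows. They were chosen by symbol, and all 7 symbols were found among the 28786 genes of the count table. Liver biopsies came from 9 cows, with 3 cows and 3 libraries in each group. TN cows were kept at thermoneutrality, HS cows were exposed to heat stress, and PF cows were kept at thermoneutrality but pair-fed, so that their feed intake followed that of the HS cows. All 9 were lactating dairy cows of the same breed, and each group holds only 3 animals. The HS and TN comparison therefore contains both the heat and the lower intake, the PF and TN comparison contains the lower intake without the heat, and the HS and PF comparison contains the heat at matched intake. The cows are named by group and replicate number, such as HS 2.

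Metallothioneins are small, cysteine-rich proteins that bind zinc, copper and cadmium in the cell, and the liver is a main site of their production. MTF1 binds to metal response elements in their promoters when free zinc is high, and glucocorticoids and inflammatory cytokines also raise their transcription. Cellular zinc is set by the SLC39A (ZIP) family, which brings zinc into the cytosol, and the SLC30A (ZnT) family, which moves zinc out of the cytosol into vesicles or out of the cell.

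The libraries held between 16874444 (TN 1) and 22557047 (HS 1) counts. TN 1 stood apart from the other cows on the first principal component, at 51.6 against −21.1 to 9.71 in the other 8 cows, and this component held 35.8% of the variance. The labelled tissue was checked against 7 hepatocyte markers, which were all detected in every cow. Their summed level was 14987 CPM (read counts scaled by TMM-normalized library size) in TN 1, 57440 and 66543 CPM in the other TN cows, 77453 to 106631 CPM in PF and 54844 to 110974 CPM in HS.

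MT1A was the member with the widest range between cows. Its level was 0, 29.9 and 2.92 CPM in TN 1, TN 2 and TN 3, 22.9, 266 and 358 CPM in PF 1, PF 2 and PF 3, and 101, 1341 and 5.66 CPM in HS 1, HS 2 and HS 3. HS 2 was the highest of all cows, and HS 3 lay among the TN cows, below TN 2. PF 1 also lay below TN 2, so the 3 groups overlapped. In counts, MT1A went from 0 in TN 1, where the library allows up to 0.132 CPM at 3 counts, to 22890 in HS 2. HS 2 was thus at least 10184-fold above TN 1, and it was 459-fold above TN 3, the lowest cow with a count.

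MT1E was 3.25, 51.7 and 20.2 CPM in the TN cows in order of replicate, 38.1, 179 and 460 CPM in the PF cows and 254, 1013 and 23.4 CPM in the HS cows. MT2A was 16.5, 185 and 56.7 CPM in the TN cows, 91.4, 389 and 439 CPM in the PF cows and 198, 901 and 77.4 CPM in the HS cows. HS 2 was again the highest cow and TN 1 the lowest for both genes, with a distance of 312-fold for MT1E and 54.6-fold for MT2A. HS 3 was the lowest HS cow for all 3 metallothioneins and lay below TN 2 in each. Within each group the 3 genes placed the cows in 1 order, which was HS 2, HS 1 and HS 3 from high to low in HS, PF 3, PF 2 and PF 1 in PF, and TN 2, TN 3 and TN 1 in TN.

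**Figure D1:**
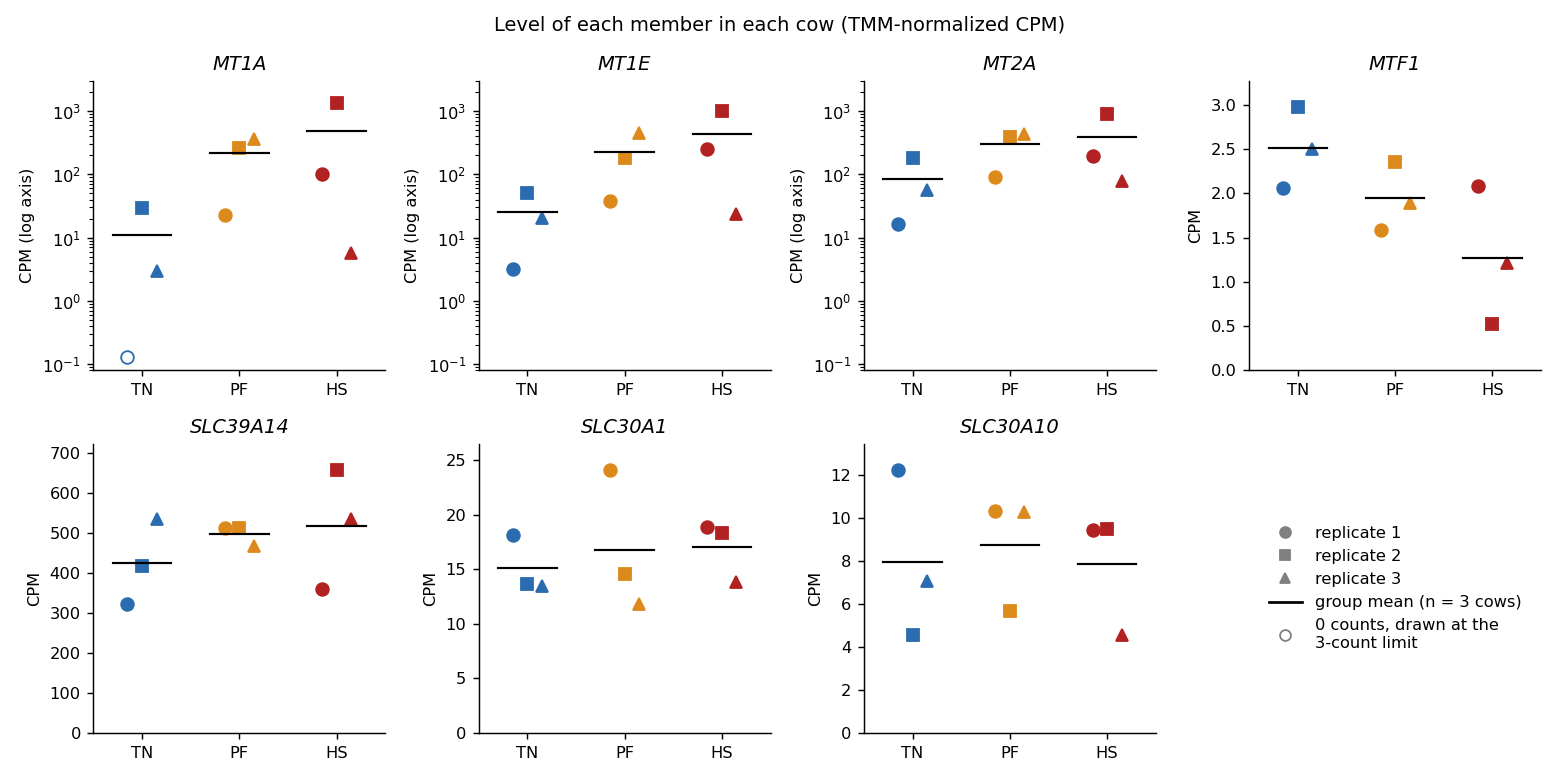
Level of the 7 genes in each cow, in TMM-normalized CPM, with a log axis for the metallothioneins and a linear axis from 0 for the others; points are cows, marker shapes are replicate numbers, lines are means of 3 cows, and the open circle is TN 1 with 0 counts, drawn at the limit of 3 counts. Within a group MT1A, MT1E and MT2A differ by 4.80-fold (MT2A in PF) to 237-fold (MT1A in HS), with HS 2 the highest and TN 1 the lowest of all cows, whereas the transporters stay within 2.04-fold to 2.67-fold over all 9 cows.

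The group means of MT1A were 10.9 ± 16.5 CPM in TN, 216 ± 173 CPM in PF and 483 ± 745 CPM in HS (SD, n = 3). Those of MT1E were 25.1 ± 24.6, 226 ± 215 and 430 ± 518 CPM, and those of MT2A were 86.0 ± 87.8, 306 ± 188 and 392 ± 445 CPM, in the same order of groups. All 3 genes therefore had the order TN, PF, HS, from the lowest mean to the highest. In HS the SD was larger than the mean for each of them, because HS 2 and HS 3 lay far apart. The SD of log2 CPM within groups was 3.09 for MT1A, 2.19 for MT1E and 1.60 for MT2A, against a median of 0.39 over the 15073 genes tested in the 3 groups, which placed them at ranks 3, 12 and 42 from the most variable gene.

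Together, the 3 metallothioneins took 0.299% of all counts in HS 2 (95% Wilson interval 0.296 to 0.301%) and 0.00267% in TN 1 (0.00243 to 0.00292%). The other HS cows were at 0.0660% and 0.00923%, the PF cows at 0.0145, 0.0771 and 0.126%, and the other TN cows at 0.0254% and 0.00741%. These intervals cover counting error only, and they are narrow beside the distances between cows of the same group. The make-up of the metallothionein counts also differed between cows. MT1A made up 41.2% of them in HS 2, 31.9% in PF 2 and 28.5% in PF 3, but 5.32% in HS 3, 3.66% in TN 3 and 0% in TN 1. MT2A had the reverse pattern, with 83.6% in TN 1, 72.7% in HS 3 and 71.0% in TN 3, and 27.7% in HS 2. The distance between the highest and the lowest cow was thus largest for MT1A and smallest for MT2A. The shares are of counts that were not divided by transcript length, so they compare cows, not genes within a cow.

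**Figure D2:**
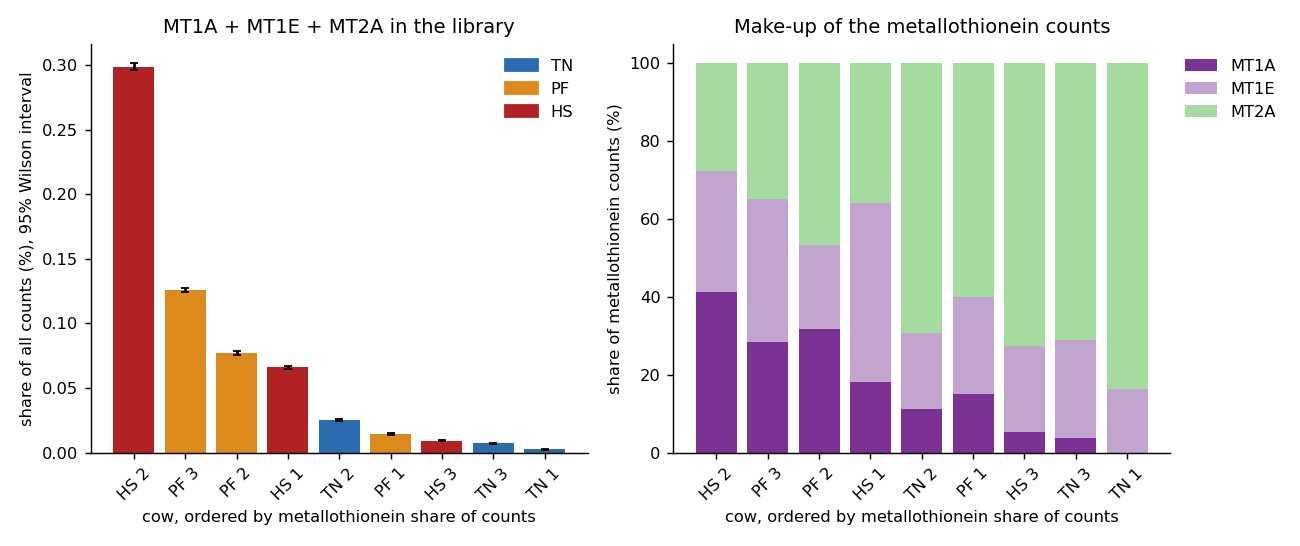
Left, share of all counts (%) on MT1A, MT1E and MT2A together in each of the 9 cows, ordered by that share and coloured by group, with 95% Wilson intervals; right, the make-up (%) of those counts. The share is 0.299% in HS 2 and 0.00267% in TN 1, and MT1A makes up 41.2% of it in HS 2 and 0% in TN 1.

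The first comparison asked how the liver of heat-stressed cows differs from that of cows kept cool and fed freely. MT1A had a log2 fold change of 5.46 (SE 2.03, 95% interval 0.91 to 10.02) in HS against TN, which was the 4th highest among 14582 genes tested. MT1E had 4.09 (SE 1.26, 1.27 to 6.91), at rank 6, and MT2A had 2.18 (SE 0.96, 0.02 to 4.34), at rank 60. None of the 3 was a differentially expressed gene (DEG), for which the fold change had to be over 1.5 and the FDR under 0.1. With edgeR's quasi-likelihood test, the unadjusted p-values were 0.00914 for MT1E, 0.0236 for MT1A and 0.0486 for MT2A, and the adjusted ones (FDR) were 0.417, 0.473 and 0.522. In this bulk tissue, more RNA per cell and more cells of a type that makes the RNA cannot be told apart.

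Of the 7 genes, 0 were DEGs in HS against TN, and 0.0892% of all genes tested were. At an unadjusted edgeR p under 0.05 there were 3 of 7, the metallothioneins, against 9.36% of all genes. The HS and TN cows overlapped for all 7 genes, while 16.1% of all genes had no overlap. DESeq2 also made 0 of the 7 a DEG, with 1.75% of its genes called. Its unadjusted p-values were 0.0317 for MT1A, 0.00486 for MT1E and 0.0836 for MT2A. The metallothionein difference depended on HS 2. Without that cow the log2 fold changes in HS against TN were 2.29 for MT1A (SE 1.54), 2.46 for MT1E (SE 1.05) and 0.68 for MT2A (SE 0.81). Without TN 1 they were 4.87, 3.57 and 1.69, and without TN 2, the highest TN cow, they were 8.40, 5.19 and 3.41. When both HS 2 and TN 1 were left out, an alternative added after the data were seen, they were 1.70 for MT1A (SE 1.24), 1.94 for MT1E (SE 0.93) and 0.19 for MT2A (SE 0.60). With no filter on low counts, MT1E became a DEG in this comparison (edgeR FDR = 0.0825). In that fit 124 of all 20483 genes tested were DEGs, against 13 of 14582 with the filter.

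**Figure D3:**
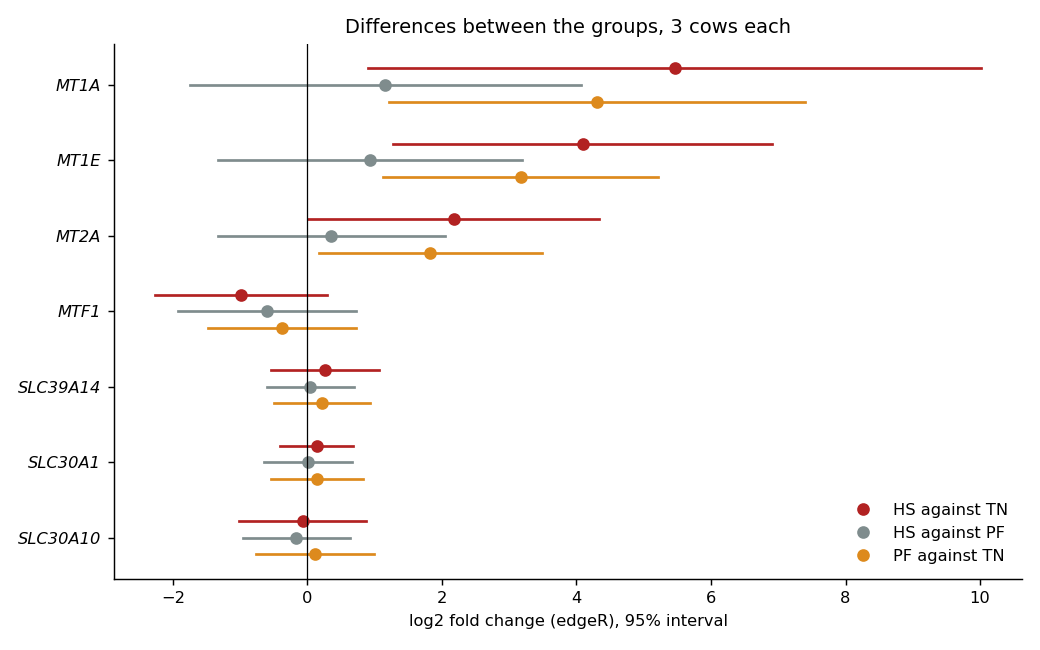
Log2 fold change (x axis) of the 7 genes with its 95% interval in the 3 pairs of groups, from edgeR with 3 cows in each group. The intervals of MT1A, MT1E and MT2A lie above 0 against TN, with that of MT2A in HS against TN starting at 0.02, and all intervals of HS against PF cross 0.

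The PF and TN comparison asked what lower intake does without heat. MT1A had a log2 fold change of 4.31 (SE 1.41, 95% interval 1.21 to 7.40), the highest of the 14580 genes tested. MT1E had 3.17 (SE 0.93, 1.12 to 5.22) at rank 4, and MT2A had 1.83 (SE 0.75, 0.18 to 3.48) at rank 39. By edgeR, their p-values were 0.0106, 0.00574 and 0.0328 and their FDR 0.697, 0.693 and 0.708, so none was a DEG. Among all genes tested 0% were DEGs here by edgeR (0 genes), with 6.88% at an unadjusted p under 0.05, and DESeq2 called 0.555% of its genes and none of the 7. The unadjusted DESeq2 p-values were 0.0496 for MT1A, 0.0106 for MT1E and 0.0793 for MT2A. The PF and TN cows overlapped for all 7 genes, because PF 1 lay below TN 2 for each metallothionein, and 13.3% of all genes had no overlap.

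Each cow left out in turn gave log2 fold changes in PF against TN of 3.72 to 7.25 for MT1A, 2.15 to 4.27 for MT1E and 1.35 to 3.06 for MT2A. The highest of each came without TN 2, and without TN 1 they were 3.72, 2.65 and 1.35. With no filter on low counts, all 3 became DEGs in PF against TN, with edgeR FDR of 0.000665 for MT1A and MT1E and 0.0764 for MT2A. In that fit 136 of all 20273 genes tested were DEGs, against 0 of 14580 with the filter. The cause of this dependence on the filter was not tested. The HS and PF groups were compared with the same 3 TN cows, so the fold changes against TN share the low value of TN 1.

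At matched intake, the HS and PF cows differed little beside their spread. The log2 fold change in HS against PF was 1.16 for MT1A (SE 1.32, 95% interval −1.74 to 4.07), 0.93 for MT1E (SE 1.03, −1.34 to 3.19) and 0.35 for MT2A (SE 0.77, −1.33 to 2.04). All 7 genes had an edgeR FDR of 1.00 in this comparison, and 0 of 7 had an unadjusted p under 0.05. The intervals leave room for a large difference in either direction for MT1A. Of the 14510 genes tested, 0.0276% were DEGs and DESeq2 called 0.771% of its genes. An unadjusted p under 0.05 was seen in 5.32% of the genes and no overlap between the groups in 10.6%. Without HS 2, the direction turned for all 3 metallothioneins, to −2.02 for MT1A (SE 1.11), −0.71 for MT1E (SE 0.95) and −1.16 for MT2A (SE 0.62).

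**Figure D4:**
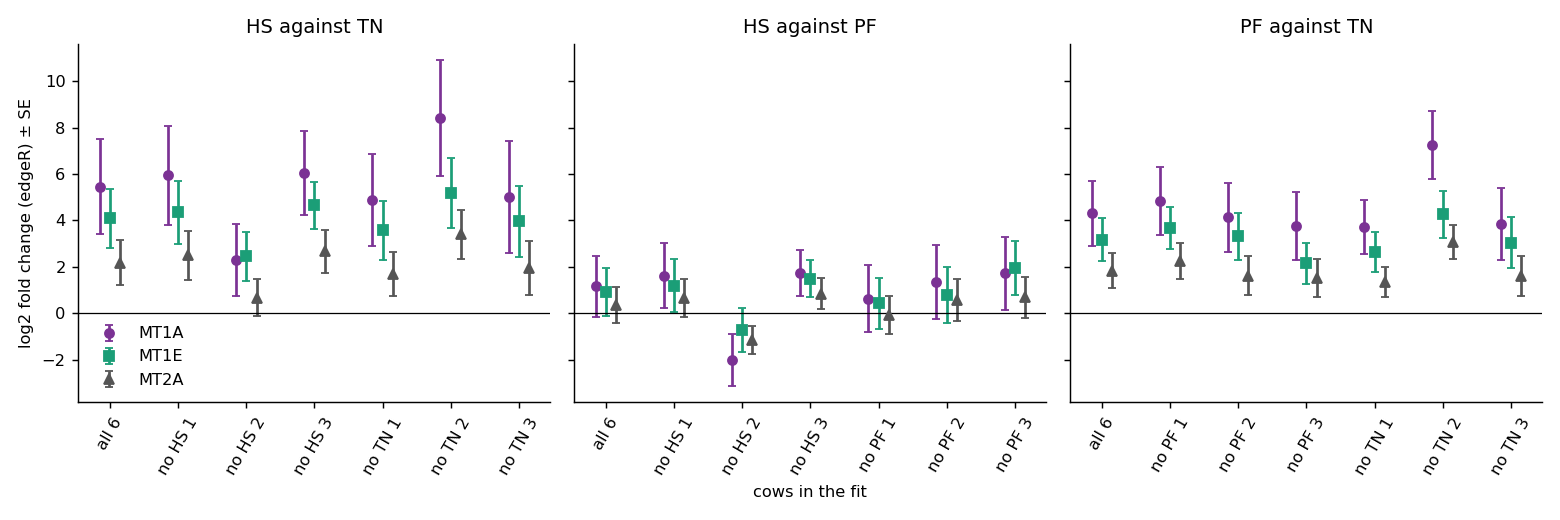
Log2 fold change ± SE (y axis) of MT1A, MT1E and MT2A with all 6 cows of a pair and with each cow left out (x axis), from edgeR. In HS against PF the values fall below 0 for all 3 genes without HS 2 (−2.02, −0.71 and −1.16), and for MT2A also without PF 1, whereas in both comparisons with TN they stay above 0.

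A test of all 3 groups together by edgeR gave unadjusted p-values of 0.0211 for MT1E, 0.0415 for MT1A and 0.0940 for MT2A, with FDR of 0.562, 0.620 and 0.688. The lowest of the other 4 genes was MTF1, at 0.249. Of the neighbouring groups in the order TN, PF and HS, PF and TN had 95% intervals above 0 for all 3 metallothioneins in the pairwise edgeR fit. They missed the FDR criterion, and for MT2A the unadjusted edgeR p was 0.0688 with all 9 libraries in 1 fit. HS and PF had intervals that cross 0.

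MTF1, the transcription factor that binds the metal response elements of metallothionein promoters, had the opposite order of means. It was 2.06, 2.97 and 2.51 CPM in the TN cows, 1.59, 2.36 and 1.89 CPM in the PF cows and 2.08, 0.53 and 1.21 CPM in the HS cows. HS 2, the cow with the most metallothionein, was the lowest, and HS 1 lay in the range of TN and PF. The group means were 2.51 ± 0.45 in TN, 1.94 ± 0.39 in PF and 1.27 ± 0.78 CPM in HS (SD, n = 3), and MTF1 had 9 to 56 counts per cow, which limits its precision. The log2 fold change was −0.98 in HS against TN (SE 0.57, 95% interval −2.27 to 0.30, edgeR FDR 0.586), −0.60 in HS against PF (SE 0.60, −1.93 to 0.73) and −0.38 in PF against TN (SE 0.50, −1.47 to 0.72). None passed the test.

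SLC39A14 (ZIP14), an importer that carries zinc, manganese and iron into hepatocytes, was well covered, with 6737 to 11239 counts per cow. Its level was 323, 417 and 536 CPM in the TN cows, 513, 514 and 468 CPM in the PF cows and 359, 659 and 535 CPM in the HS cows. HS 2 was the highest cow and TN 1 the lowest, as for the metallothioneins, but TN 3 was second and the groups overlapped. The means were 425 ± 107 CPM in TN, 498 ± 26.6 CPM in PF and 518 ± 150 CPM in HS. The log2 fold change of SLC39A14 was 0.26 in HS against TN (95% interval −0.54 to 1.06), 0.05 in HS against PF (−0.60 to 0.70) and 0.22 in PF against TN (−0.49 to 0.94).

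SLC30A1 (ZnT1), the exporter in the plasma membrane whose gene is also a target of MTF1, was 18.2, 13.6 and 13.5 CPM in the TN cows, 24.1, 14.5 and 11.8 CPM in the PF cows and 18.9, 18.3 and 13.8 CPM in the HS cows. PF 1 was the highest cow and PF 3 the lowest, so the whole range of the 9 cows lay within PF. Its log2 fold change was 0.14 in HS against TN (95% interval −0.40 to 0.68), 0.01 in HS against PF (−0.64 to 0.66) and 0.14 in PF against TN (−0.54 to 0.83). The interval against TN is far narrower than that of the metallothioneins and ends below 1 on the log2 scale in each pair.

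SLC30A10 (ZnT10), an exporter known mainly for moving manganese out of the cell, was 12.2, 4.58 and 7.10 CPM in the TN cows, 10.3, 5.66 and 10.3 CPM in the PF cows and 9.47, 9.49 and 4.58 CPM in the HS cows. Both the highest and the lowest cow were TN cows, TN 1 and TN 2. The log2 fold change of SLC30A10 was −0.07 in HS against TN (95% interval −1.01 to 0.88), −0.16 in HS against PF (−0.96 to 0.63) and 0.11 in PF against TN (−0.77 to 1.00). Its direction turned in each of the 3 pairs when single cows were left out.

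Across the 9 cows, the 3 metallothioneins moved together. On the log2(CPM + 0.5) scale, Pearson's r was 0.987 between MT1A and MT2A, with rho of 1 by Spearman, 0.982 between MT1A and MT1E with rho of 0.983, and 0.970 between MT1E and MT2A with rho of 0.983. The exact permutation p-values of r were 2.76e-06, 2.20e-05 and 6.61e-05, or 5.79e-05, 0.000231 and 0.000463 after adjustment over the 21 pairs of the 7 genes, and those of rho were 5.51e-06, 4.96e-05 and 4.96e-05. Without TN 1 and HS 2, the 2 cows farthest from the median, r was 0.970, 0.952 and 0.915. The cows belong to 3 groups, and the permutations ran over all 9 cows without regard to group. Differences between the groups therefore enter r and these p-values. With 3 cows in a group, r was not computed within groups. The order of the cows within groups is given above. By RefSeq (ARS-UCD2.0, newer than the build of the alignment), MT1E is a synonym of MT1A, LOC768319 and LOC613358. Which of these loci the MT1E counts come from is therefore uncertain. Reads that fit more than 1 of these similar genes could have been split between them, since how such reads were counted is not given in the sources used here.

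None of the other 18 pairs had an adjusted exact permutation p under 0.468 for r. SLC39A14 had r of 0.487 with MT1A (rho 0.250), 0.454 with MT1E (rho 0.183) and 0.537 with MT2A (rho 0.250), which turned to −0.413, −0.534 and −0.387 without TN 1 and HS 2, so these relations rest on those cows. MTF1 had r of −0.392 with MT1A, −0.412 with MT1E and −0.377 with MT2A, which turned to 0.176, 0.153 and 0.277 without the same cows. SLC30A1, which is also a target of MTF1, had r of −0.06 with MT1A, −0.09 with MT1E and −0.17 with MT2A. The part of MTF1 in these values was not tested.

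The cells that make up a biopsy also differed between cows, as far as marker genes show. The summed hepatocyte markers given above were lowest in TN 1, where the metallothioneins were lowest, but highest in HS 3, which had the lowest metallothioneins of the HS cows. Most of this sum was ALB, at 8603 CPM in TN 1 and 81572 CPM in HS 3, and the markers did not all go 1 way. TTR, SERPINA1, CPS1 and FGB were also lowest in TN 1. FGB is also on the acute phase list read below, and in HS 2 it gave 21979 of the 67188 CPM of the sum. APOA1 (826 CPM in TN 1) was above the other TN cows, and APOB (956 CPM in TN 1) was above TN 2 (825 CPM). The 8 macrophage markers, all detected, summed to 1800 to 3117 CPM in HS, 1023 to 1697 CPM in PF and 1211 to 2806 CPM in TN, and HS 2 was the lowest HS cow. All 8 had a higher mean in HS than in PF, with a median log2 fold change of 0.85, and 7 of 8 had an unadjusted edgeR p under 0.05 and no overlap of the groups, beside 5.32% and 10.6% of all genes. In HS against TN 7 of the 8 were higher, with 1 of 8 at such a p and 2 of 8 without overlap, beside 9.36% and 16.1%. In PF against TN 7 of the 8 were lower, with 1 of 8 at such a p and 1 of 8 without overlap, beside 6.88% and 13.3%. None of the 8 was a DEG by edgeR, and DESeq2 called MARCO in HS against TN (edgeR FDR 0.381). The 4 neutrophil markers in the table summed to 43.1 to 131 CPM in HS, 11.04 to 57.5 CPM in PF and 18.5 to 37.7 CPM in TN. An unadjusted edgeR p under 0.05 was seen for 3 of the 4 in HS against PF, beside 5.32% of all genes. In HS against TN it was 2 of the 4, beside 9.36%. By edgeR 0 of the 4 were DEGs, and DESeq2 called 2 of them in HS against TN, beside 1.75% of its genes. Summed endothelial (294 to 538 CPM), stellate cell (145 to 368 CPM), bile duct (17.3 to 87.0 CPM) and T cell (26.7 to 56.0 CPM) markers had overlapping ranges in the 3 groups. Of the red blood cell markers, SLC4A1 was at 0 in every cow. The sum was 4.09 to 23.2 CPM in TN and 0.59 to 3.07 CPM in the other groups. Only 2 of these markers were tested in HS against TN, and they went opposite ways. HBB (haemoglobin beta), the larger part of the TN sum, had a log2 fold change of −4.04 (SE 0.74, edgeR FDR 0.163). AHSP had 0.41, with group means of 0.56 CPM in TN, 0.62 CPM in PF and 0.75 CPM in HS. DESeq2 called 1 of the 2 in HS against TN, beside 1.75% of its genes. Of the skeletal muscle markers, ACTA1, MYH7 and MYL2 were at 0 in every cow. Counts on the mitochondrial genome made up 13.6 to 22.2% of a TN library, 6.90 to 7.79% in PF and 3.84 to 5.68% in HS, and leaving these genes out of the library sizes turned no direction among the 7 genes. The part of the cell types and of the mitochondrial counts in the metallothionein values was not tested.

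The zinc pathway around these genes was read from 24 further genes, namely 13 other ZIP importers, 9 other zinc exporters and the metallothioneins MT3 and MT4. None of the genes on these lists was a DEG in any pair, by edgeR or by DESeq2. Of the ZIP importers, 12 were tested. In HS against TN, 9 of them had a log2 fold change above 0 and 3 below 0. The median was 0.36 against −0.01 for all genes tested, and 2 of 12 had an unadjusted edgeR p under 0.05, as did 9.36% of all genes. In PF against TN there were also 9 above 0 and 3 below 0, with a median of 0.44 and 2 of 12 genes at that level, beside 6.88% of all genes. The untested importer, SLC39A12, had 0 to 7 counts per cow. In HS against PF 4 of the 12 were above 0 and 8 below 0, with a median of −0.03 and 0 genes at that level.

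SLC39A1 (ZIP1), an importer of the plasma membrane, was 24.3, 48.6 and 29.5 CPM in the TN cows, 48.5, 73.9 and 54.3 CPM in the PF cows and 46.7, 55.3 and 70.8 CPM in the HS cows. TN 2 reached into the range of the other groups, and the log2 fold change was 0.73 (SE 0.29, edgeR FDR 0.490) in HS against TN and 0.78 (SE 0.30, FDR 0.708) in PF against TN. SLC39A3 (ZIP3), a close relative of it, was 5.62, 9.23 and 7.52 CPM in TN and 12.7, 11.1 and 16.2 CPM in HS, without overlap. Its log2 fold change in HS against TN was 0.82 (SE 0.27, edgeR FDR 0.456).

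SLC39A7 (ZIP7), which releases zinc from the endoplasmic reticulum and Golgi into the cytosol, was 16.9, 33.3 and 24.3 CPM in TN and 35.1, 72.2 and 49.6 CPM in PF, and the lowest PF cow was just above the highest TN cow. Its log2 fold change was 1.07 in PF against TN (SE 0.33, edgeR FDR 0.693), with HS between them at 27.7, 40.5 and 48.7 CPM. In HS against PF, where no importer had an unadjusted p under 0.05, the list ran from −0.43 for SLC39A7 (SE 0.30) to 0.47 for SLC39A10 (SE 0.32), an importer of the plasma membrane that overlaps DNAH7 in the annotation.

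Of the 9 other exporters, 5 were tested, since SLC30A8 had 0 counts in every cow, SLC30A3 had at most 2 counts, TMEM163 had 0 to 11 counts and SLC30A2 had counts in HS 1 and HS 3 only, with 6 and 3. In HS against TN 3 of the 5 were higher and 2 lower, with a median log2 fold change of 0.23. In PF against TN 4 were higher and 1 lower, with a median of 0.26, and in HS against PF 1 was higher and 4 lower, with a median of −0.33. SLC30A9, a zinc transporter of the mitochondrion, was 34.9, 25.6 and 28.2 CPM in TN and 22.8, 17.9 and 19.4 CPM in HS. All HS cows were below all TN cows. The log2 fold change was −0.60 (SE 0.22, edgeR FDR 0.473), and this gene overlaps LOC132345506 in the annotation.

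SLC30A7 (ZnT7), which loads zinc into the Golgi, was 12.4, 18.1 and 16.4 CPM in TN and 32.7, 24.1 and 21.2 CPM in PF. All PF cows were above all TN cows. The difference was 0.73 on the log2 scale (SE 0.27, edgeR FDR 0.708), and SLC30A7 overlaps LOC112446080 in the annotation. In HS against PF the exporter list ran from −0.36 for SLC30A4 (SE 0.50) to 0.0050 for SLC30A6 (SE 0.24). Of the other metallothioneins, MT4 had 0 counts in every cow, which allows up to 0.202 CPM in HS 3, the library with the highest limit. MT3 had 1 to 22 counts per cow and was tested only in HS against TN, with a log2 fold change of −0.88 (SE 0.87, edgeR FDR 0.734).

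**Figure D5:**
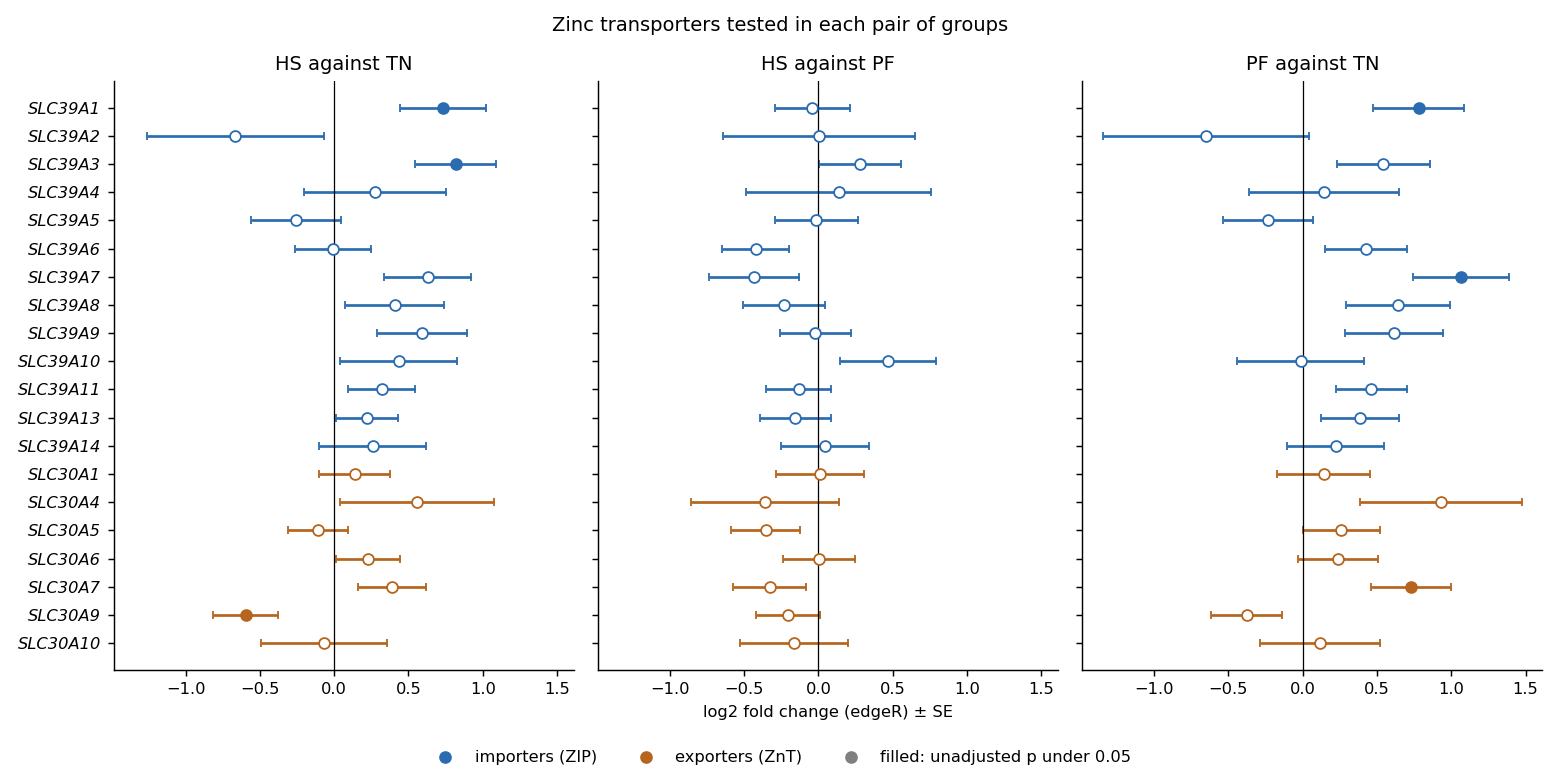
Log2 fold change ± SE (x axis) of the ZIP importers and ZnT exporters tested in each pair of groups, from edgeR with 3 cows in each group; filled points have an unadjusted p under 0.05. Most importers lie above 0 against TN and 0 points are filled in HS against PF, and the points run from −0.67 for SLC39A2 in HS against TN to 1.07 for SLC39A7 in PF against TN.

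The genes whose pattern over the 9 cows was most like the metallothioneins were ranked by Pearson's r with the mean log2(CPM + 0.5) of MT1A, MT1E and MT2A, over 13465 genes with a mean of at least 1 CPM. The 5 highest outside the lists were ELK4, an ETS family transcription factor (r = 0.934), IGDCC4 (0.918), WTAP, a subunit of the RNA m6A methyltransferase complex (0.918), RRP1, a ribosome biogenesis protein (0.914), and INSR, the insulin receptor (0.907). Their range over the cows was narrow except for IGDCC4. INSR was 48.1, 55.9 and 47.4 CPM in TN, 56.9, 69.4 and 84.5 CPM in PF and 60.2, 89.5 and 59.5 CPM in HS, with HS 2 and PF 3 highest. IGDCC4 was 0.09 CPM in TN 1 and 11.2 CPM in HS 2, the lowest and highest cows of the metallothioneins. Its TN 1 value lies below the 3-count limit of that library (0.132 CPM), so the size of its range is uncertain. With 9 cows and this many genes the ranking was not stable, since only 1 of the 5 was kept with Spearman's rho and 0 to 3 were kept when 1 cow was left out.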

How the data were processed

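Liver biopsies from 9 cows, 3 in each of the TN, PF and HS groups, gave 1 library each. The deposited values are raw read counts per gene, made by the authors with fastp 0.23.2, STAR 2.7.9a on ARS-UCD1.2 and featureCounts 2.0.3. The annotation release, the strand setting and how reads matching more than 1 gene were handled are not given in the sources used here. Such reads could move counts between MT1A, MT1E and MT2A. All 9 columns were mapped to cows by the labels.

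The groups were compared in pairs, 6 libraries at a time, by the quasi-likelihood test of edgeR 4.0.16 (R 4.3.3) after TMM and filterByExpr, and p-values were adjusted over every gene in the fit (Benjamini-Hochberg). The DEG criteria were a fold change over 1.5 with an FDR under 0.1. The SE of a log2 fold change was its size divided by the square root of F, and the 95% interval came from the t distribution with the test's degrees of freedom. A test of all 3 groups used all 9 libraries. CPM were TMM-normalized over the 9 libraries, with an offset of 0.5 on the log2 scale. The PCA used the 3000 most variable genes. Where a gene had 0 counts, 3 counts served as its upper limit, which covers counting error only. Each cow is 1 animal, so the spread is between animals.

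The genes described, the gene lists (zinc transport, metallothioneins, copper handling, glucocorticoid response, acute phase response and cell type markers) and the tests were chosen with earlier results of these data known. Named besides the 7 genes are genes of the lists other than the cell type markers with an unadjusted p under 0.05 in a pair, otherwise the highest and lowest of a list, and the 5 genes most like the metallothioneins. Other genes, markers included, were named after their values were seen. Of the 31 zinc gene symbols, 30 matched the RefSeq annotation of ARS-UCD2.0, which lists MT1E only as a synonym of MT1A and other genes. That assembly is later than the authors' build, so it was used for synonyms and overlaps, not positions. The alternatives were DESeq2 1.42.0, RLE size factors, library sizes without mitochondrial genes, a minimum of 10 counts in every library, no filter, a single fit of all 9 libraries, a block for the replicate number, and fits without each cow. The pairwise fits were also run on simulated counts, with the spread between cows set by the trend over all genes. The metallothioneins vary far more than that trend, so the simulation says little about them. Sequences were not analysed here.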

Additional observations from a re-analysis of the deposited data

How the results depend on the processing

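Of the log2 fold changes of the 7 genes under the alternatives, 253 kept their direction and their side of the DEG criteria, 4 passed the criteria only with no filter on low counts, and 19 turned direction. With cows left out 1 at a time, HS against PF ran from −2.02 to 1.74 for MT1A, −0.71 to 1.97 for MT1E, −1.16 to 0.84 for MT2A, −0.19 to 0.37 for SLC30A1, −0.16 to 0.24 for SLC39A14 and −0.40 to 0.11 for SLC30A10. In the same way SLC39A14 ran from 0.057 to 0.47 in HS against TN, SLC30A10 ran from −0.34 to 0.42 in HS against TN and from −0.16 to 0.59 in PF against TN, and SLC30A1 from −0.21 to 0.34 in PF against TN. Without both TN 1 and HS 2, the HS against TN value was −0.092 for SLC39A14 and 0.27 for SLC30A10, and 0 genes were DEGs. The number of DEGs among all genes moved far more than these directions. In HS against TN it was 13, but 270 with DESeq2, 124 with no filter, 4 with all 9 libraries in 1 fit and 0 to 39 with a cow left out (0 without HS 2, 39 without TN 2). In HS against PF it was 4, but 122 with DESeq2, 8 with RLE size factors, 98 with no filter, 8 without mitochondrial genes in the library sizes and 5 to 10 with a cow left out. In PF against TN it was 0, but 91 with DESeq2, 136 with no filter, 1 with at least 10 counts in every library and 0 to 14 with a cow left out. The 3-group test gave 7 genes, but 291 with the DESeq2 likelihood ratio test, 212 with no filter, including MT1A and MT1E, and 2 to 47 with a cow left out. Zinc genes called went from 0 to 1 in HS against TN and to 3 in PF against TN with no filter. The cause was not tested.

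The replicate numbers are shared by the groups, and the labels do not say whether cows of the same number were matched. With 3 cows in a group, correlations between cows of the same number cannot settle this. Cows of the same number had deviations correlated between −0.18 and 0.24 in HS against TN, −0.22 and 0.04 in HS against PF, and −0.03 and 0.17 in PF against TN, and 3, 1 and 2 of 6 cows correlated best with their own number. With the replicate block, 33 genes were DEGs in HS against TN, 6 in HS against PF and 1 in PF against TN, and none was a zinc gene. Of the 5 genes most like the metallothioneins, 4 were kept with an offset of 2, 1 with Spearman's rho and 0 to 3 with a cow left out. With 3 cows in a group, the spread between cows limits the metallothionein values rather than depth. Depth limits MTF1, with 9 counts in HS 2, and MT3.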

Other observations

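Other pathways known to act on metallothionein genes were read from 3 lists. Of 12 acute phase genes, 12 had a higher mean in HS than in TN (median log2 fold change 1.63, against −0.01 for all genes tested) and 12 in PF than in TN (0.68), and 11 were higher in HS than in PF (0.52). HAMP, the iron hormone hepcidin, was a DEG in HS against TN (log2 fold change 2.47, SE 0.37, edgeR FDR 0.0919), at 109, 100.2 and 52.0 CPM in the TN cows and 533, 529 and 419 CPM in the HS cows, but without HS 2 the number of DEGs in this comparison was 0. SAA3, a serum amyloid A protein, was 6.01, 5.14 and 9.85 CPM in TN, 13.0, 27.1 and 20.4 CPM in PF and 69.6, 165 and 17.7 CPM in HS. HS 2 was the highest cow for 9 of the 12 genes, among them SAA3, HP (haptoglobin, 19424 CPM, against 9.11 to 1732 CPM in the other 8 cows), ITIH4 (9563 CPM) and ORM1 (29246 CPM), and it was also the cow with the most metallothionein. HAMP and SOCS3 were highest in PF 2 and C3 in HS 3, and PF 3, second in metallothionein, had less HP (211 CPM) than PF 2 (1107 CPM) or TN 3 (846 CPM). A relation between these genes and the metallothioneins was not tested. By edgeR, SAA3 had an FDR of 0.184 in HS against TN, HP of 0.487 and ITIH4 of 0.478, and in HS against PF the FDR was 0.624 for SAA3, 0.847 for HP, 0.641 for ITIH4 and 0.718 for ORM1. DESeq2 called 3 of the 12 in HS against TN (HAMP, ITIH4 and SAA3), beside 1.75% of its genes, and 1 in PF against TN (SAA3), beside 0.555%. In PF against TN, SAA3 (log2 fold change 1.52, FDR 0.523), HAMP (1.77, FDR 0.708) and LBP, which binds bacterial lipopolysaccharide (1.74, FDR 0.697), had an unadjusted edgeR p under 0.05.

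Of 8 glucocorticoid response genes, 3 had a higher mean in HS than in TN, 5 in HS than in PF, and 0 in PF than in TN. FKBP5, a co-chaperone of the glucocorticoid receptor, was 7.64, 21.3 and 12.4 CPM in TN, 8.34, 13.0 and 6.40 CPM in PF and 56.0, 23.8 and 26.7 CPM in HS, and all HS cows were above all other cows. Its log2 fold change was 1.35 in HS against TN (SE 0.42, edgeR FDR 0.417) and 1.94 in HS against PF (SE 0.38, FDR 0.183), and HS 1, not HS 2, was highest. Of these 8 genes 0 passed the DEG criteria by edgeR, 2 had an unadjusted p under 0.05 in each comparison with HS (9.36% of all genes against TN and 5.32% against PF), and DESeq2 called 2 in HS against TN (1.75% of its genes) and 1 in HS against PF (0.771%). SGK1, a kinase gene of the same list, was lower in HS, by −1.03 on the log2 scale against TN (FDR 0.394) and −0.68 against PF (FDR 0.908). PER1, a clock gene, had −0.97 in PF against TN (FDR 0.708).

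Of 11 copper handling genes, 9 had a log2 fold change above 0 in HS against TN and 9 in PF against TN, with medians of 0.50 and 0.64. In HS against PF there were 5 (median −0.0049). In HS against TN the list ran from −0.12 for ATP7B, the copper pump of hepatocytes, to 0.88 for SLC31A1, the copper importer, and none had an unadjusted edgeR p under 0.05. CCS, the copper chaperone for superoxide dismutase, had its highest levels in the PF cows, with 0.75 in PF against TN (FDR 0.708) and with −0.84 in HS against PF (FDR 0.641). SLC31A2 had 0.72 in HS against PF (FDR 0.923) and STEAP4, a metalloreductase, 1.65 in PF against TN (FDR 0.708).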
